A study of Mus musculus with 32 samples.

Results

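The genes of the TREM2 receptor pathway were followed in forebrain microglia of rTg4510 mice, a model of tauopathy, and of wild type mice. TREM2 is a receptor on the surface of microglia that binds lipids, lipoproteins and cell debris. It has no signalling tail of its own and pairs in the membrane with the adaptors DAP12, encoded by Tyrobp, and DAP10, encoded by Hcst. Phosphorylated tyrosines in the tail of DAP12 recruit the kinase SYK, which passes the signal to phospholipase C gamma 2 (Plcg2) and the calcium pathway, DAP10 binds phosphoinositide 3-kinase, and the phosphatase SHIP1 (Inpp5d) removes the lipid product of that kinase. In brain, these genes are expressed mainly by microglia, and TREM2 is needed for the full change of microglia to the state called disease-associated microglia (DAM).

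The 6 genes Trem2, Tyrobp, Hcst, Syk, Plcg2 and Inpp5d were chosen by name for their roles in TREM2 signalling, and all 6 were among the 18588 genes of the table. RNA was sequenced from microglia isolated with CD11b beads from the forebrains of female mice at 2, 4, 6 and 8 months of age. rTg4510 mice carried both a responder transgene for human mutant 4-repeat tau and a tetracycline transactivator driven by the CaMKIIα promoter, which drives the tau transgene in neurons of the forebrain after birth. WT mice were littermates with neither transgene. Each library pooled 8 to 10 animals, and 28 of 32 libraries were used. WT and rTg4510 each had 4 libraries at 2 and at 6 months, but 3 at 4 and at 8 months, where 1 library of each had failed the quality control of the study.

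All values are log2 signals, a signal per gene put together by the authors from its exons and set to the same median, 5.63, in every library. Signals are not divided by gene length, so levels are compared between libraries and not between genes. A gene is called a differentially expressed gene (DEG) where the false discovery rate (FDR) from limma over all genes was under 0.05 and the change exceeded 1.5 fold. Because the samples are bulk preparations, fewer cells of a type cannot be told apart from less RNA per cell. The microglia genes Cx3cr1 and Csf1r were at 13.02 to 14.05 and 11.89 to 12.45 in the 28 libraries, and Itgam, which encodes the CD11b that the beads bind, was at 8.94 to 9.88.

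The motifs through which the adaptors signal differ, and their coding sequences are shown because both adaptors were higher in rTg4510, like the receptor. Codons 92 to 106 of mouse Tyrobp, from the GENCODE vM21 transcript, encode the immunoreceptor tyrosine-based activation motif (ITAM) that recruits SYK, and codons 72 to 75 of Hcst encode the site that binds phosphoinositide 3-kinase. Capitals mark the codons for tyrosine, codons 92 and 103 in Tyrobp and codon 72 in Hcst.
Tyrobp: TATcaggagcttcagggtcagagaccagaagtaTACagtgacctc
Hcst: TACatcaacatg

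Start regions were compared for the letters GGAAGT, the core of the sites bound by ETS factors such as PU.1, the factor that specifies microglia. Entries from RefSeq on GRCm38.p6, which covers 250 bases before to 50 after the start, were found for 5 of the 6 genes, Tyrobp being the exception. On either strand, GGAAGT was found 2 times for Hcst, 2 times for Inpp5d, 1 time in 1 of the 2 start regions of Syk, and in none of the windows of Trem2 and Plcg2, and 23.8% of all 32851 start regions held it. The E-box CACGTG was found once, for Plcg2 (7.15% of all start regions), and the AP-1 letters TGACTCA in none of the windows (5.2% of all). The sequences of Trem2 (chr17:48346151-48346450, plus strand), Hcst (chr7:30419805-30420104, minus strand) and Inpp5d (chr1:87620062-87620361, plus strand) are shown because they are a receptor and an adaptor that rose and a phosphatase that was not called. Capitals mark GGAAGT, and the sequences are those of the reference genome.
Trem2: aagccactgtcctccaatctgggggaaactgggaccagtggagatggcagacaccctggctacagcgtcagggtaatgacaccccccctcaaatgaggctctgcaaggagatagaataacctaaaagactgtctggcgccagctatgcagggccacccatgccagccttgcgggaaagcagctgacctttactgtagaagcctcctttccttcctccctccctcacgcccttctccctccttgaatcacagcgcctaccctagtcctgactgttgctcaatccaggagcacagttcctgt
Hcst: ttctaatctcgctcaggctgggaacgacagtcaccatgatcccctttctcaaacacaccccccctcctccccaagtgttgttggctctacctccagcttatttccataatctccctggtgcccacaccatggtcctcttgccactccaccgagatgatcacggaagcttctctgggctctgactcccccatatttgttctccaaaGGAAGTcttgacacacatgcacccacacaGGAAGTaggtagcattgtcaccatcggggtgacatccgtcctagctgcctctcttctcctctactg
Inpp5d: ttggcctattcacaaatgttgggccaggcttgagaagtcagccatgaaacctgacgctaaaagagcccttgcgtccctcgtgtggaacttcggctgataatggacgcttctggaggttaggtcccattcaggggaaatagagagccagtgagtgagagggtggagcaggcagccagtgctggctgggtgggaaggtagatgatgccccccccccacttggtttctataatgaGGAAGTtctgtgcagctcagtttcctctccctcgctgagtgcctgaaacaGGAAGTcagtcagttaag

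At 2 months none of the 6 genes was a DEG between rTg4510 and WT. At 4 and 6 months 3 of 6 were DEGs, Trem2, Tyrobp and Hcst, all higher in rTg4510. At 8 months Tyrobp and Hcst were DEGs and Trem2 lay just under 1.5 fold. Of all genes, 1.58% were DEGs with higher and 0.403% with lower signal at 2 months, 9.47% and 4.33% at 4 months, 11.3% and 8.54% at 6 months, and 10.5% and 5.37% at 8 months. By the FDR alone, 1 of 6 was higher at 2 months and 3 of 6 at each later age, against 4.76%, 14.1%, 19.1% and 16% of all genes. Syk and Plcg2 were lower at 4 and 6 months and Plcg2 at 8 months, so that 0, 2, 2 and 1 of 6 were lower by the FDR alone at the 4 ages, against 1.27%, 9.1%, 14.9% and 9.78% of all genes. All members that were higher by the FDR belonged to the receptor complex, and all that were lower were enzymes below it. The median log2 difference of the 6 genes was 0.02, 0.24, 0.28 and 0.23 at the 4 ages, beside 0.01, -0.04, -0.04 and -0.01 over all genes.

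**Figure D1:**
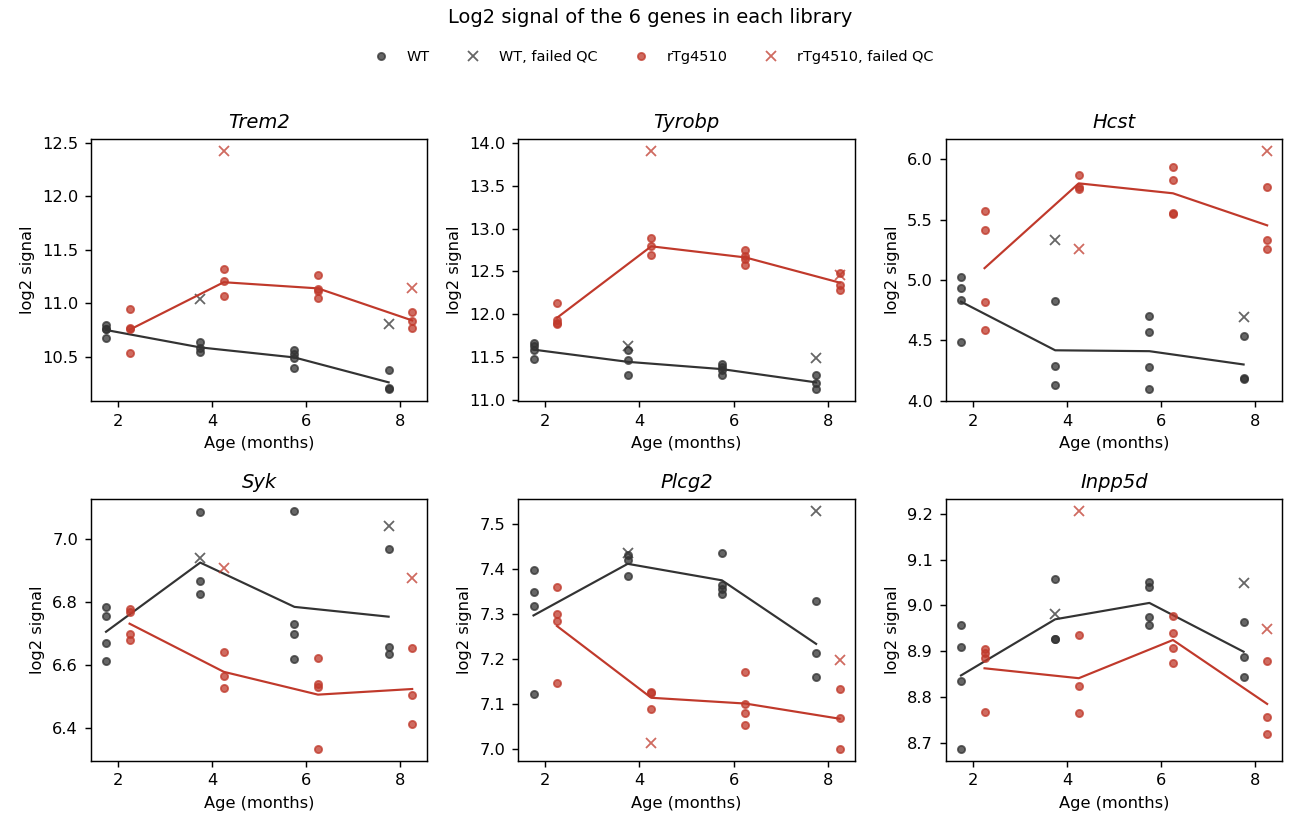
Log2 signal of each gene (vertical axis) against age in months for WT (black) and rTg4510 (red), 1 point per library, lines through the group means of the 28 libraries, crosses for the 4 libraries that failed quality control. Among the 28 libraries, crosses aside, Trem2, Tyrobp and Hcst of rTg4510 lie above WT at 4, 6 and 8 months, Plcg2 lies below, and Inpp5d overlaps at every age.

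Trem2, the receptor (chromosome 17, 48346401 to 48352276, GRCm38.p6), did not differ at 2 months. The WT libraries were at 10.68, 10.76, 10.76 and 10.80 and the rTg4510 libraries at 10.77, 10.76, 10.95 and 10.53. The groups overlapped, with a log2 difference of 0.00 (SE 0.07, FDR = 0.994 by limma). At 4 months WT was at 10.58, 10.64 and 10.54 and rTg4510 at 11.20, 11.31 and 11.07. Every rTg4510 library lay above every WT library, and the log2 difference was 0.61 (SE 0.08, 1.53 fold, FDR = 7.3e-06 by limma). At 6 months WT was at 10.39, 10.57, 10.49 and 10.52 and rTg4510 at 11.05, 11.13, 11.26 and 11.11, again without overlap, a difference of 0.65 (SE 0.07, 1.56 fold, FDR = 2.6e-07 by limma). At 8 months the groups stayed apart, WT at 10.19, 10.21 and 10.38 and rTg4510 at 10.76, 10.92 and 10.84. That difference of 0.58 (SE 0.08, 1.49 fold, FDR = 1.1e-05 by limma) fell short of the 1.5 fold threshold. The WT mean was 10.75 at 2 months and 10.26 at 8 months, and the rTg4510 mean was 10.75 and 10.84.

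The size of the difference in Trem2 depended on the normalization. The 99th percentile of all signals was 11.70 to 11.94 in the WT libraries and 12.13 to 12.55 in the rTg4510 libraries, although the medians were equal. With quantile normalization, which makes the whole distribution equal, the Trem2 difference was -0.18 at 2 months, the opposite sign to the value above (FDR = 0.158 by limma). It was 0.24 at 4 months (FDR = 0.0358), 0.22 at 6 months (FDR = 0.0216) and 0.20 at 8 months (FDR = 0.0703), by limma, so that Trem2 was no longer a DEG at any age. Ranked by signal from the highest, Trem2 stood at 463 to 509 in the WT libraries and 397 to 441 in the rTg4510 libraries at 4 months. At 2 months its ranks overlapped, 411 to 456 in WT and 422 to 558 in rTg4510. The DEG call at 4 months also rested on 1 library: without rTg4510 4 months replicate 2 the difference was 0.55. Without rTg4510 8 months replicate 1 or WT 8 months replicate 3, Trem2 was a DEG at 8 months as well.

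Tyrobp, the adaptor DAP12 (chromosome 7, 30413782 to 30417582), was separated between genotypes at all 4 ages and was the 1 gene of the 6 that passed the FDR at 2 months. The WT libraries at 2 months were at 11.66, 11.47, 11.58 and 11.63 and the rTg4510 libraries at 11.88, 11.90, 12.13 and 11.93. All rTg4510 libraries lay above WT, by 0.37 (SE 0.07, 1.29 fold, FDR = 0.0012 by limma), under the 1.5 fold threshold. The FDR was 0.441 with all 32 libraries and 0.0583 when only the 2-month groups were fitted. At 4 months WT was at 11.58, 11.46 and 11.29 and rTg4510 at 12.69, 12.89 and 12.80, a difference of 1.35 (SE 0.08, 2.55 fold, FDR = 8.0e-11 by limma). At 6 months the difference was 1.31 (SE 0.07, 2.47 fold, FDR = 6.3e-12 by limma), with WT at 11.29 to 11.41 and rTg4510 at 12.58 to 12.75. At 8 months WT was at 11.12, 11.20 and 11.29 and rTg4510 at 12.28, 12.48 and 12.34, a difference of 1.17 (SE 0.08, 2.25 fold, FDR = 5.7e-10 by limma). With quantile normalization the differences were smaller, 0.16, 0.83, 0.71 and 0.64 at the 4 ages, and Tyrobp remained a DEG at 4, 6 and 8 months.

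Hcst, the adaptor DAP10 (chromosome 7, 30417712 to 30419854), had differences close to those of Tyrobp from 4 months on, with a wider spread between libraries. At 2 months WT was at 5.02, 4.83, 4.49 and 4.94 and rTg4510 at 5.57, 4.82, 5.41 and 4.59, and the groups overlapped (0.28, SE 0.21, FDR = 0.582 by limma). At 4 months WT was at 4.83, 4.29 and 4.13 and rTg4510 at 5.87, 5.76 and 5.77, without overlap, a difference of 1.38 (SE 0.24, 2.61 fold, FDR = 1.4e-04 by limma). The group means at 6 months were 4.41 ± 0.27 in WT and 5.72 ± 0.20 in rTg4510 (SD, n = 4 each), and at 8 months 4.30 ± 0.20 and 5.45 ± 0.28 (SD, n = 3 each). Those differences were 1.31 (SE 0.21, FDR = 3.2e-05) and 1.15 (SE 0.24, FDR = 8.1e-04), by limma, and no libraries overlapped. Quantile normalization left them at 1.30 and 1.25. Tyrobp and Hcst lie tail to tail, on the plus and the minus strand, with 129 bases between them. Whether the libraries kept the strand is not given in the sources used here, so reads that ran past the end of one gene into the other could not be told apart by strand. In the signals as deposited, Tyrobp exceeded Hcst by group means of 6.765 (WT, 2 months) to 7.025 (WT, 4 months). Ranked by signal from the highest at 4 months, Hcst stood at 12813 to 15639 in WT and 8219 to 8736 in rTg4510. Tyrobp stood at 251 to 295 and 141 to 148. Whether reads from Tyrobp made up part of the Hcst signal was not tested.

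**Figure D2:**
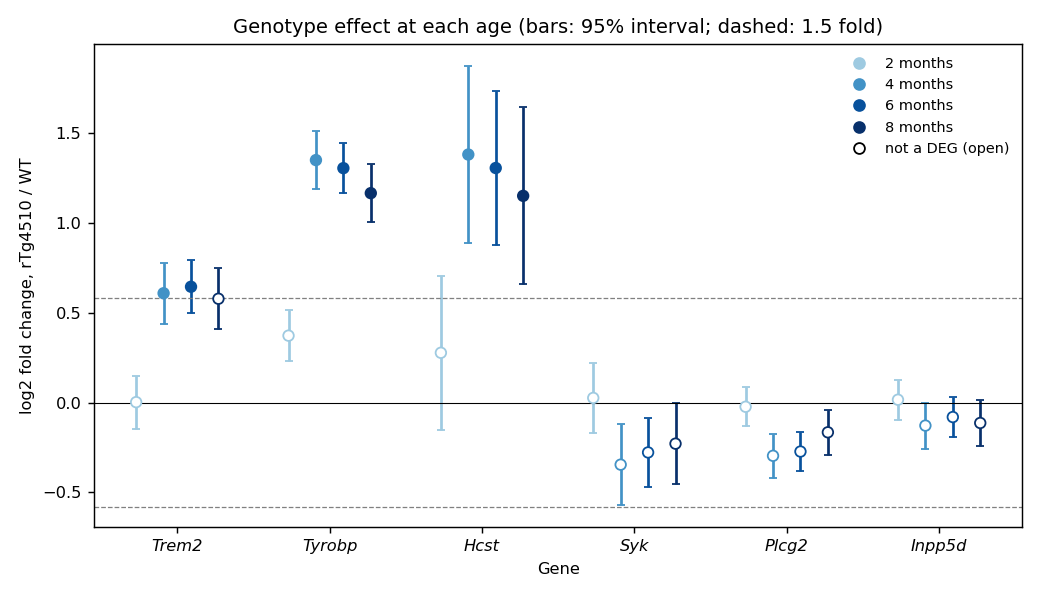
Log2 fold change of rTg4510 against WT (vertical axis) for each gene at 2, 4, 6 and 8 months (light to dark blue), with 95% intervals from the limma fit; filled points are DEGs and dashed lines mark 1.5 fold. Tyrobp and Hcst lie between 1.15 and 1.38 from 4 months on, Trem2 between 0.58 and 0.65, and Syk, Plcg2 and Inpp5d between -0.35 and -0.08.

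Syk, the kinase that docks on the phosphorylated ITAM (chromosome 13, 52582610 to 52648792), was lower in rTg4510 at 4 and 6 months by the FDR but was not a DEG at any age. At 2 months the libraries overlapped, at 6.61 to 6.79 in WT and 6.68 to 6.78 in rTg4510. At 4 months WT was at 7.09, 6.82 and 6.87 and rTg4510 at 6.53, 6.64 and 6.57, without overlap, a difference of -0.35 (SE 0.11, FDR = 0.0228 by limma). At 6 months the groups met, WT at 7.09, 6.62, 6.70 and 6.73 and rTg4510 at 6.53, 6.54, 6.62 and 6.33. This difference was -0.28 (SE 0.09, FDR = 0.0251 by limma), and at 8 months it was -0.23 (SE 0.11, FDR = 0.131 by limma) with overlap. WT replicate 1 was the highest library for Syk at both 4 and 6 months. The FDR no longer passed at 4 months without that library or without rTg4510 replicate 1 or 4, nor at 6 months without that library or without rTg4510 replicate 4. The same held with all 32 libraries (FDR = 0.0862 and 0.0804 at 4 and 6 months) and with only the groups of 1 age in the fit (FDR = 0.0928 and 0.143), by limma.

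Plcg2, the phospholipase that releases the second messengers for calcium and protein kinase C (chromosome 8, 117498275 to 117635142), was lower at every age from 4 months, by less than 1.5 fold. At 2 months WT was at 7.12 to 7.40 and rTg4510 at 7.15 to 7.36. At 4 months WT was at 7.38, 7.42 and 7.43 and rTg4510 at 7.13, 7.09 and 7.13, a difference of -0.30 (SE 0.06, FDR = 7.2e-04 by limma). The spread within each of these groups was small beside the gap between them. At 6 months WT was at 7.34, 7.43, 7.36 and 7.36 and rTg4510 at 7.08, 7.17, 7.05 and 7.10, a difference of -0.27 (SE 0.05, FDR = 2.6e-04 by limma). At 8 months the highest rTg4510 library, at 7.13, came close to the lowest WT library, at 7.16, and the difference was -0.17 (SE 0.06, FDR = 0.0451 by limma). That last FDR was 0.0809 with moderated variance and 0.191 with only the 8-month groups fitted, and it missed 0.05 in 18 of 28 fits that left out 1 library, with a range of 0.0139 to 0.208.

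Inpp5d, the phosphatase SHIP1 that limits the signal (chromosome 1, 87620312 to 87720510), overlapped between genotypes at all 4 ages. Its group means ran from 8.78 to 8.92 in rTg4510 and from 8.85 to 9.01 in WT. The differences were 0.02, -0.13, -0.08 and -0.11 at 2, 4, 6 and 8 months (SE 0.05 to 0.06), with FDR = 0.943, 0.148, 0.261 and 0.197 by limma. With quantile normalization they were -0.07, -0.28, -0.25 and -0.28, and the last 3 passed the FDR (0.00215, 0.000949 and 0.0021 by limma) at under 1.5 fold. The differences from 4 months on were negative with both normalizations, but whether they passed the FDR at single ages depended on the normalization.

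The differences in the receptor complex widened between 2 and 4 months. The genotype difference was larger at 4 than at 2 months by 0.61 for Trem2 (SE 0.11, FDR = 0.0012), 0.98 for Tyrobp (SE 0.10, FDR = 3.9e-06) and 1.11 for Hcst (SE 0.31, FDR = 0.0349), in the limma test of the difference itself, and these 3 of 6 passed both thresholds, as did 4.66% of all genes. Of these 3 the value for Hcst was the least certain. Its FDR was 0.0766 by limma when each pair of same-numbered libraries of the same age was a block. It was above 0.05 in 10 of 28 fits that left out 1 library, by limma. The value for Trem2 fell under 1.5 fold without rTg4510 2 months replicate 4 (0.53) or rTg4510 4 months replicate 2 (0.55) and with quantile normalization (0.42). With all 32 libraries neither Trem2 (FDR = 0.106) nor Hcst (FDR = 0.285) passed, by limma. For Plcg2 the difference fell by 0.27 (SE 0.08, FDR = 0.0379 by limma), less than 1.5 fold, and Syk (-0.37, FDR = 0.129) and Inpp5d (-0.14, FDR = 0.355) did not pass. The FDR of Plcg2 was 0.0555 with all 32 libraries, 0.123 with only the groups compared and 0.0711 with moderated variance, by limma. In the 28 fits that left out 1 library it ran from 0.0116 to 0.0922. Between 4 and 6 months and between 6 and 8 months no change in the genotype difference of any of the 6 genes passed (0.156% and 0% of all genes by limma, with 1514 and 841 genes at an unadjusted p under 0.05, none of the 6 among them).

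Followed over age within a genotype, rTg4510 microglia gained Tyrobp and Hcst from 2 to 4 months. Tyrobp rose by 0.84 (SE 0.07, FDR = 9.0e-08) and Hcst by 0.70 (SE 0.22, FDR = 0.0356), by limma, and 6.39% of all genes were DEGs in this comparison. Trem2 rose by 0.44 (SE 0.08, FDR = 3.8e-04 by limma), less than 1.5 fold. The call for Hcst was lost without any 1 of rTg4510 2 months replicates 2 and 4 or rTg4510 4 months replicates 1, 2 and 4, and that for Tyrobp with quantile normalization, at 0.50. With all 32 libraries Trem2 was called (0.75) and Hcst was not (FDR = 0.149 by limma). None of the 6 was a DEG in rTg4510 from 4 to 6 months (0.818% of all genes) or from 6 to 8 months (0.00538%). In WT none was a DEG from 2 to 4, 4 to 6 or 6 to 8 months, where 0.0484%, 0.00538% and 0% of all genes were. At an unadjusted p under 0.05, 3 of 6 passed in WT from 2 to 4 months and 3 of 6 from 6 to 8 months, as did 10.2% and 9.78% of all genes. In rTg4510 from 6 to 8 months 3 of 6 passed as well, as did 14.4% of all genes, with Trem2 at -0.30 (FDR = 0.0894) and Tyrobp at -0.29 (FDR = 0.0817) by limma. WT Trem2 was at lower means at each later age, 10.75, 10.59, 10.49 and 10.26, none of these steps passing the FDR.

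The differences were set against each other within libraries, by an exact two-sided permutation test of the mean genotype difference over the 4 ages, with genotypes exchanged within each age (1960000 arrangements). This test was added after the values had been seen. It did not keep same-numbered libraries together, although these deviated together at 6 and 8 months. A version with exchange only within such pairs was not run. The mean difference was 0.46 for Trem2 (p = 3.4e-05), 1.05 for Tyrobp (p = 1.02e-06, the smallest p the arrangements allow) and 1.03 for Hcst (p = 1.2e-05), by exact permutation. It was -0.21 for Syk (p = 8.9e-04), -0.19 for Plcg2 (p = 9.1e-05) and -0.08 for Inpp5d (p = 0.018), by exact permutation with no adjustment. All 15 pairs of the 6 genes were compared and p values adjusted over the 15. The 95% intervals did not come from the permutation. They were computed from the pooled variance within groups and a t distribution with 20 degrees of freedom. Tyrobp differed between genotypes by 0.59 more than Trem2 (95% interval 0.52 to 0.66, adjusted p = 3.8e-06 by exact permutation), and Hcst by 0.57 more than Trem2 (95% interval 0.36 to 0.79, adjusted p = 4.9e-05 by exact permutation). Both adaptors therefore differed by more than the receptor, and with quantile normalization Tyrobp still exceeded Trem2 by 0.47 and Hcst exceeded Trem2 by 0.94. Tyrobp and Hcst differed from each other by 0.02 (95% interval -0.19 to 0.23, adjusted p = 0.827 by exact permutation). With quantile normalization, however, Hcst exceeded Tyrobp by 0.47 (adjusted p = 4.3e-04 by exact permutation), so this comparison depended on the normalization. Syk and Plcg2 differed by -0.02 (95% interval -0.12 to 0.09, adjusted p = 0.773 by exact permutation). Each of them was lower than Inpp5d, by 0.13 and 0.11 (adjusted p = 0.0053 and 0.0011 by exact permutation), a difference that was not kept with quantile normalization (adjusted p = 0.913 and 0.564). The other 9 pairs, each a gene of the receptor complex against an enzyme, differed with adjusted p from 3.8e-06 to 6.4e-05 by exact permutation, and with quantile normalization they differed in the same direction.

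**Figure D3:**
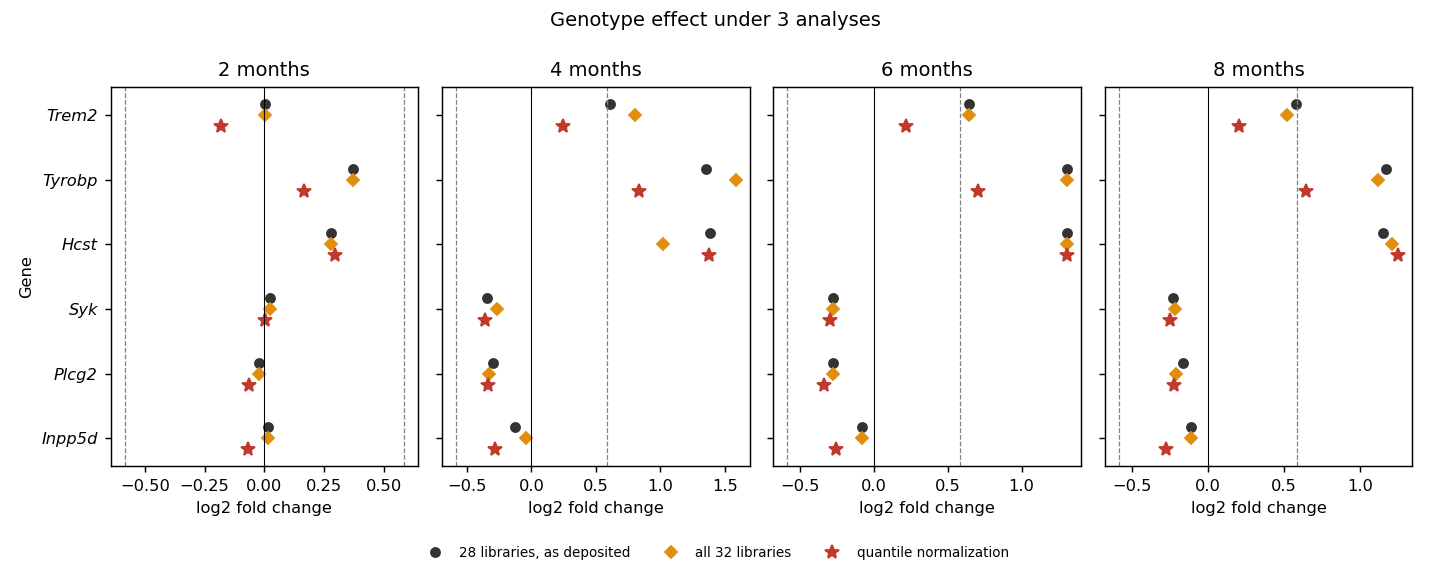
Log2 fold change of rTg4510 against WT (horizontal axis) for each gene at each age, from the 28 libraries as deposited (black), all 32 libraries (orange) and quantile normalization (red stars), with dashed lines at 1.5 fold and a horizontal scale of its own in each panel. Quantile normalization moved Trem2 at 4 months from 0.61 to 0.24 and Tyrobp from 1.35 to 0.83 and left Hcst at 1.38.

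Genes around TREM2 were counted from lists of its ligands, partners and effectors. Every list count below is to be read beside the share of DEGs among all genes. At 2, 4, 6 and 8 months, 1.58%, 9.47%, 11.3% and 10.5% of all genes were higher and 0.403%, 4.33%, 8.54% and 5.37% lower. Of 4 ligand and sheddase genes, only Apoe, the lipoprotein that TREM2 binds, was a DEG, and it was higher at every age, by 0.60 (SE 0.13), 2.94 (SE 0.15), 3.60 (SE 0.13) and 3.41 (SE 0.15) at 2, 4, 6 and 8 months (FDR from 4.3e-14 to 0.0065 by limma). The call at 2 months was lost with quantile normalization, at 0.46. The other TREM genes did not rise with Trem2. Of 4 measured genes of the TREM cluster, Treml4 was lower at 4 months (-1.07, SE 0.39, FDR = 0.0495 by limma) and Treml1 at 6 months (-0.76, SE 0.20, FDR = 0.0065 by limma), and no gene was higher. The Treml4 call was lost without any 1 of 21 libraries and with quantile normalization (FDR = 0.0727 by limma). It was also lost with only the 4-month groups fitted (FDR = 0.101 by limma).

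Of 12 measured receptors that couple to DAP12 or DAP10, 0, 1, 2 and 3 were higher and 0, 0, 2 and 0 lower at 2, 4, 6 and 8 months. Cd300lb, an activating receptor of the CD300 family, was at 1.45, 2.23 and 3.33 above WT at 4, 6 and 8 months (SE 0.40 to 0.46, FDR from 8.7e-06 to 0.0257 by limma), the call at 4 months being lost with all 32 libraries (FDR = 0.0608 by limma). Cd300c2 was higher by 0.66 and 0.72 at 6 and 8 months, but with quantile normalization by 0.23 and 0.33, under 1.5 fold. Pilrb2 and Plxna1 were lower at 6 months, at -0.85 (FDR = 0.0176) and -0.72 (FDR = 4.4e-04), by limma. Plxna1 was at -0.58 with quantile normalization, under 1.5 fold. The Pilrb2 call was lost with all 32 libraries (FDR = 0.158 by limma). It was also lost without rTg4510 6 months replicate 2 or 3 or WT 6 months replicate 1. The median of the list was 0.03, -0.17, -0.04 and 0.19 at the 4 ages, beside 0.01, -0.04, -0.04 and -0.01 over all genes.

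Of 7 measured genes for other ITAM adaptors and ITAM kinases, 1, 3, 3 and 3 were higher and none lower. Fcer1g, the adaptor with an ITAM that serves Fc receptors, was higher by 0.72, 0.69 and 0.67 at 4, 6 and 8 months (FDR from 4.5e-07 to 6.8e-06 by limma), sizes near those of Trem2, but with quantile normalization it was at 0.31, 0.17 and 0.21 and no longer a DEG. The Src family kinase Fgr was higher by 1.14 at 2 months and by 2.55, 2.33 and 2.20 later, and Fyn by 0.70, 0.95 and 0.90 from 4 months (FDR from 7.1e-05 to 0.0078 by limma for Fyn). The call of Fgr at 2 months was lost with all 32 libraries (FDR = 0.145) and that of Fyn at 4 months with only the 4-month groups fitted (FDR = 0.176), by limma.

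Of 25 adaptors and effectors below SYK, 0, 3, 1 and 2 were higher and 0, 1, 4 and 0 lower at the 4 ages. Of all genes, 1.58%, 9.47%, 11.3% and 10.5% were higher and 0.403%, 4.33%, 8.54% and 5.37% lower. The median of the list was 0.01, -0.20, -0.08 and -0.10, beside 0.01, -0.04, -0.04 and -0.01 over all genes. The linker Lat2 was higher by 0.88, 0.77 and 0.63 at 4, 6 and 8 months, and the adaptor Sh3bp2, which binds SYK, by 0.69 and 0.85 at 4 and 8 months. The IP3 receptor Itpr3 was lower, at -0.62 and -0.73 at 4 and 6 months, and so was Plcg1, the relative of Plcg2, at -0.70 at 6 months. All had FDR of at most 2.1e-04 by limma, and Sh3bp2 at 4 months was lost with all 32 libraries, at 0.56. Of 11 genes of the phosphoinositide 3-kinase arm, only Pik3r5 was a DEG, lower at 4 months (-0.59), and the call was lost without rTg4510 4 months replicate 2 or 4 or WT 4 months replicate 4.

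Of 15 measured inhibitors of ITAM signalling, 0, 1, 1 and 1 were higher and 0, 1, 1 and 0 lower. Lilrb4a, an inhibitory receptor, was higher by 1.74, 1.88 and 1.85 at 4, 6 and 8 months (SE 0.20 to 0.23, FDR from 1.3e-07 to 5.1e-06 by limma). Dok3, an inhibitory adaptor, was lower at 4 and 6 months, at -0.93 and -0.90 (FDR = 0.0452 and 0.0184 by limma). Its call at 4 months was lost without any 1 of 16 libraries. That call was also lost with only the 4-month groups fitted (FDR = 0.261) and with quantile normalization (FDR = 0.0635), by limma. The call at 6 months was lost with only the 6-month groups fitted (FDR = 0.0752 by limma).

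**Figure D4:**
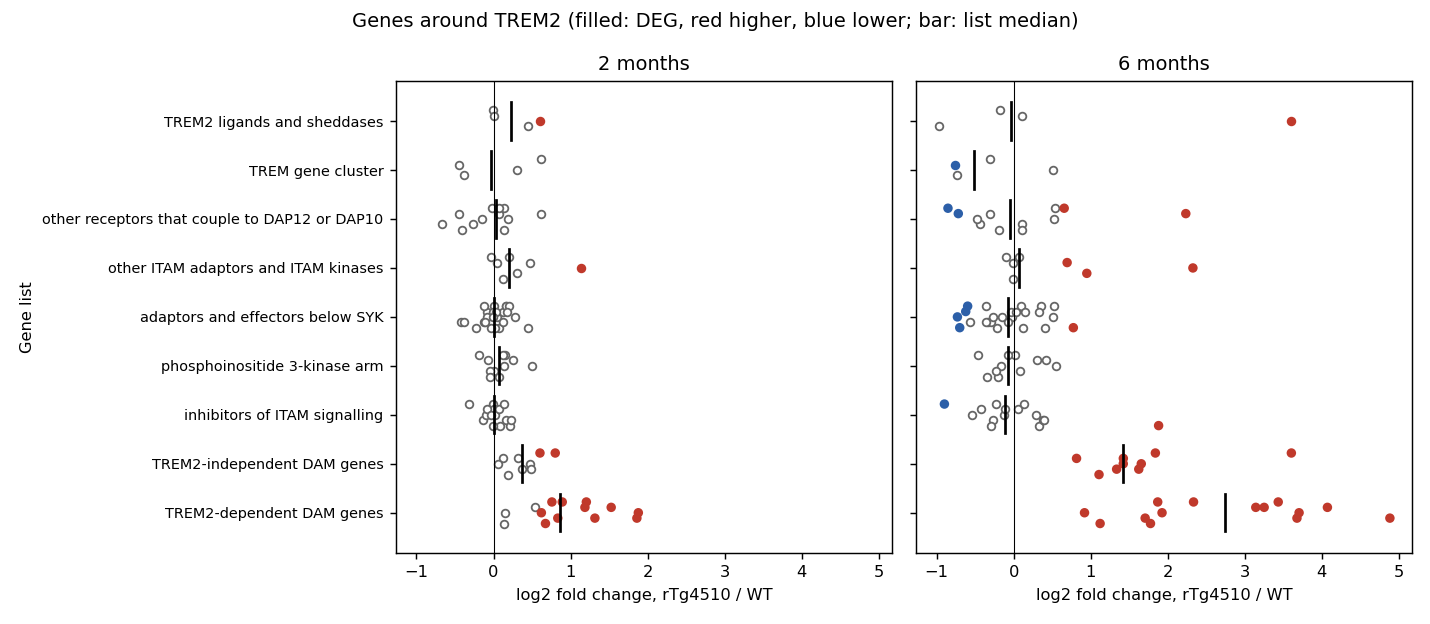
Log2 fold change of rTg4510 against WT (horizontal axis) for the genes of 9 lists around TREM2 at 2 and 6 months, 1 point per gene, filled where a DEG (red higher, blue lower), with black bars for list medians. At 6 months all 9 and all 14 genes of the DAM lists are higher, and most genes of the other lists are not DEGs.

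DAM genes are divided in the field into a first set that microglia switch on without TREM2 and a second that needs it. Of the first, 2, 9, 9 and 9 of 9 were higher at 2, 4, 6 and 8 months, and of the second 11, 14, 14 and 14 of 14, and none was lower. Both lists were drawn up with earlier results of these data known, so high counts may be partly built into them. Tyrobp, as a member, was counted in neither list. The medians were 0.37, 1.32, 1.42 and 1.53 for the first and 0.86, 2.72, 2.74 and 2.69 for the second. With quantile normalization 0, 7, 8 and 8 of the first and 10, 14, 14 and 13 of the second were higher. Among the second set, Cst7, a cystatin, was higher by 1.32 at 2 months and by 5.77, 4.88 and 4.59 later. Lpl, a lipase, was higher by 1.53, 4.74, 4.07 and 3.90, Spp1, osteopontin, by 1.86, 4.51, 3.68 and 3.82, and Csf1, a growth factor of microglia, by 1.88, 3.87, 3.71 and 3.53. At 2 months these genes were higher while Trem2 differed by 0.00 (95% interval -0.15 to 0.15), or by -0.18 with quantile normalization. Tyrobp was higher by 0.37 at that age, under 1.5 fold. Whether these genes needed TREM2 in these mice was not tested. Of the first set, the ferritin gene Fth1 was higher by 0.80, 1.51, 1.84 and 1.87, with 0.56 at 2 months under quantile normalization, and the protease inhibitor Cstb and the protease Ctsb passed 1.5 fold from 4 months, at 1.55 and 1.46 at that age. Apoe, given above, belongs to this set too.

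Markers of the cells in the preparation moved with some of these results. Of 8 microglia markers, none was higher and 0, 2, 3 and 2 were lower at the 4 ages. With quantile normalization 0, 4, 6 and 6 were lower, and their median was -0.61, -0.77 and -0.75 at 4, 6 and 8 months in place of -0.28, -0.43 and -0.45. Their summed signal on the log2 scale was 14.70 to 15.17 in WT and 14.39 to 14.92 in rTg4510. Itgam was at -0.24, -0.38, -0.62 and -0.58 relative to WT, a DEG at 6 months, Tmem119 was at -0.35, -0.74, -0.78 and -0.72, a DEG from 4 months, and Csf1r was not called at any age (-0.03, -0.13, -0.13 and -0.14). Cells of other kinds also use DAP12 and DAP10, among them natural killer cells and neutrophils. Of 8 neutrophil markers 0, 0, 7 and 7 were lower and none higher (at 4 months 2 with all 32 libraries and 3 with moderated variance), with a summed signal at 6 months of 9.68 to 10.67 in WT and 8.95 to 9.22 in rTg4510. Of 8 measured markers of natural killer and T cells, 1 was higher at every age, Klrb1c (0.89, 1.94, 2.31 and 1.53, the call at 2 months being lost with all 32 libraries), and 0, 1, 3 and 0 were lower, with a summed signal of 6.70 to 8.34 in WT and 7.02 to 7.93 in rTg4510. The median of this list was -0.08, -0.64, -0.79 and -0.60 at the 4 ages, beside 0.01, -0.04, -0.04 and -0.01 over all genes. Ncr1, which marks natural killer cells, was within 1.58 log2 units of the lowest value of the library in 7 of 28 libraries, and Cd3e, which marks T cells, in 14.

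Of the other marker lists, 0, 1, 3 and 0 of 8 border macrophage and monocyte markers, 0, 2, 1 and 0 of 5 B cell markers and 0, 0, 1 and 0 of 3 neuron markers were lower. Among 6 astrocyte markers 0, 0, 2 and 2 were lower and 0, 0, 1 and 1 higher, among 6 endothelial markers 0, 1, 3 and 1 lower and 0, 1, 1 and 1 higher, and none of 6 oligodendrocyte markers was called. The part of any of these cells in the differences of the 6 genes was not tested.

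The genes whose signals followed each member most closely over the 28 libraries were found by Pearson's r. These libraries share genotype and age groups, which alone align genes that differ between genotypes. For Trem2 they were Ssr4, Atp5e, Man2b2, Gm10231 and Gm10175 (r from 0.935 to 0.948), and for Tyrobp Creg1, Gm12033, Gm5559, Akr1a1 and Ank (r from 0.98 to 0.989). For Hcst they were Rpl41, Rps20, Gm10443, Gm10076 and Rpl13a, of which Rpl41, Rps20 and Rpl13a encode ribosomal proteins (r from 0.941 to 0.947). Syk was followed by P3h2, Exoc6b, Abca9, Zfp715 and Lifr (r from 0.83 to 0.85), Plcg2 by Dock8, Adap2, Dnajc7, Kdm3b and St3gal6 (r from 0.908 to 0.921), and Inpp5d by Gtf3c2, Uggt1, Ncoa3, Marf1 and Npc1 (r from 0.75 to 0.815). Among the 6 genes, r was 0.922 for Trem2 with Tyrobp, 0.92 for Tyrobp with Hcst and 0.877 for Trem2 with Hcst. Once each group's mean had been subtracted, these values were 0.554, 0.394 and 0.375, and the closest of the enzymes were Syk with Inpp5d at 0.555 and Plcg2 with Inpp5d at 0.50.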

How the data were processed

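The deposited table held log2 gene signals for 32 libraries, made by the authors, who summed exon reads per library, left out exons with under 10 counts in over 80% of samples, combined exons by a robust linear model, log2 transformed and median normalized. The submitters' processing notes name GRCm38, and the aligner and annotation are not given in the sources used here. Entrez IDs were matched to RefSeq symbols (17828 of 18588). The table holds no counts, so depth behind a value is unknown, and the numbers of replicates limit its precision.

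Groups were taken from the labels. A linear model of 8 group means over 28 libraries was fitted to all genes with limma 3.58.1 in R 4.3.3, with ordinary variance (20 residual degrees of freedom), and FDR was computed per contrast by Benjamini-Hochberg. Alternatives were all 32 libraries, only the groups compared, moderated variance, quantile normalization, genes under the 25th percentile of mean signal left out, and each library left out. A further alternative had a block for each pair of same-numbered WT and rTg4510 libraries of the same age. Permutation tests and figures were made in Python 3.11.15 with numpy 2.4.6 and matplotlib 3.10.9. The scripts were tested on simulated data.

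Named were all 6 genes, the 5 genes most correlated with each, and from each list at most the 4 DEGs with the largest change. Genes and lists were chosen with earlier results of these data known. Same-numbered libraries of both genotypes deviated together, over genes, at r of 0.0649 to 0.167 at 2 months, -0.0999 to 0.124 at 4, 0.131 to 0.153 at 6 and 0.15 to 0.291 at 8 months. Every pair exceeded 0.1 only at 6 and 8 months. The labels do not say what a replicate number marks. Libraries were pools of animals, and p-values measure the spread between pools.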

Additional observations from a re-analysis of the deposited data

Results flagged for a closer look

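The genotype difference changed between 2 and 4 months for the receptor complex and for 12 of the 24 named genes around it. Each gene passed both thresholds in the limma test of the difference itself, as did 4.66% of all genes. The 24 genes had been named for large genotype changes at any age, so a change between ages was partly built into their choice. The settings in which the calls of Trem2 and Hcst were lost are given above. For the members the change of the log2 difference was 0.61 for Trem2 (SE 0.11, FDR = 0.00124), 0.98 for Tyrobp (SE 0.10, FDR = 3.87e-06) and 1.11 for Hcst (SE 0.31, FDR = 0.0349), by limma. Apoe changed by 2.34, Fgr by 1.42, Fcer1g by 0.68, Lilrb4a by 1.53 and Itpr3, in the other direction, by -0.66. Among the DAM genes Fth1 changed by 0.71, Cstb by 1.07, Ctsb by 0.97, Cst7 by 4.46, Lpl by 3.21, Spp1 by 2.65 and Csf1 by 1.99. These 12 genes around the receptor complex had FDR of at most 0.0119 by limma.

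Inpp5d in rTg4510 2 months replicate 3, at 8.77, lay far below the other 3 libraries of its group, at 8.88 to 8.90. Chance alone gives such a gap in about 1 of 20 groups.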

How the results depend on the processing

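With the replicate number as a block the counts of DEGs among the 6 genes were 0, 3, 3 and 2 at the 4 ages, as without it. The block ended the call of Hcst for the difference between 2 and 4 months, leaving 2 genes, and those of Treml4 and Dok3 at 4 months. Contrasts between ages could not be estimated with the block. With all 32 libraries 1 gene was lower by the FDR alone at 4 and 1 at 6 months, and 1 gene, Tyrobp, changed its genotype difference between 2 and 4 months. With only the groups compared 1, 1 and 0 genes were lower at 4, 6 and 8 months and 1 gene was a DEG in rTg4510 from 2 to 4 months. With moderated variance 0 genes were lower at 8 months. With quantile normalization 2 genes were lower at 8 months, 1 was a DEG in rTg4510 from 2 to 4 months, 2 rather than 3 were DEGs at 4 and 6 months, Trem2 and Inpp5d at 2 months turned to -0.18 and -0.0689, and the differences Tyrobp minus Hcst and Syk minus Plcg2 turned to -0.47 and 0.0165. The latter was 0.0245 with all 32 libraries too. These alternatives for pairs of genes were chosen after seeing the data.

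Leaving out 1 library at a time, 2 to 3 genes were DEGs at 4 months and 2 to 3 at 8 months, 1 to 2 were lower by the FDR alone at 4 and at 6 months and 0 to 1 at 8 months, 1 to 3 changed their difference between 2 and 4 months, and 1 to 2 were DEGs in rTg4510 from 2 to 4 months. Plcg2 at 8 months was lost in 18 of 28 such fits, and Syk at 4 months without rTg4510 4 months replicate 1 or 4 or WT 4 months replicate 1, and at 6 months without rTg4510 6 months replicate 4 or WT 6 months replicate 1. At 2 months the sign turned in some of them for Trem2 (-0.06 to 0.07), Syk (-0.01 to 0.05), Plcg2 (-0.08 to 0.02) and Inpp5d (-0.04 to 0.05). The 24 named genes around TREM2 had 63 calls over the 4 ages. Of these, 4 were lost with all 32 libraries, 5 with only the groups compared, 10 with quantile normalization, 2 with the block and 0 with moderated variance, in 12 genes in all, with no change of sign. Leaving out 1 library was run for each of these genes at the age of its largest change and there ended the calls of Treml4, Pilrb2, Pik3r5 and Dok3 in some fits. The causes of these changes were not tested beyond the construction of each alternative.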

Other observations

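The 4 libraries that failed the quality control of the study entered the fits with all 32 libraries and no other comparison above. In rTg4510 4 months replicate 3, Trem2 was at 12.42, Tyrobp at 13.91 and Inpp5d at 9.21, each above every library that was used, while Hcst was at 5.26 and Plcg2 at 7.01, below the other rTg4510 libraries of that age. In WT 4 months replicate 3, Trem2 was at 11.04 and Hcst at 5.33, above the other WT libraries of that age. In WT 8 months replicate 4 Plcg2 was at 7.53, above every library that was used, and in rTg4510 8 months replicate 4 Hcst was at 6.07, also above every library that was used.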
